A study of Mus musculus with 6 samples.

Results

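Megakaryocyte and platelet genes were examined in hematopoietic stem cells (HSCs) of Cdk19 knockout and wild-type mice. The set was a list of 33 genes that encode platelet receptors, integrins, granule proteins, signalling enzymes and the nuclear factors that direct megakaryocyte formation. Each gene was read from the transcript cluster, the set of array probes assigned to a gene, whose annotated symbol was exactly the gene's. Of the 33, 30 had such a cluster, among 30142 genes with one in all. Each of the 30 had 1 cluster, on the chromosome of its gene. Gp1ba and Thpo had no cluster of that symbol, and the cluster of Gp1bb carried another symbol as well. These 3 were not analysed here.

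The arrays compared CDK19-/- mice with wild-type mice, both 6 to 8 weeks old, with 3 arrays each that the labels call biological replicates. CDK19 belongs to the kinase module of Mediator, which relays signals from transcription factors to RNA polymerase II. Bone marrow of the leg and hip bones was depleted of lineage-positive cells, and HSCs were sorted by flow cytometry and their total RNA hybridised. The labels do not give the strain, the sex, the deleted part of Cdk19, the markers of the gate or the number of animals behind an array, so p-values measure the spread between these arrays. The cluster of Cdk19 itself was at 11.49, 11.42 and 11.51 on the log2 scale in knockout arrays and 12.49, 12.45 and 12.38 in wild-type arrays, a change of -0.97, and whether its probes lie in the deleted part is not given. Array medians were 4.40 to 4.48, and correlations between arrays across clusters were 0.997 to 0.998 within a genotype and 0.994 to 0.995 between genotypes.

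Platelets are fragments of megakaryocytes. Thrombopoietin drives megakaryocyte growth, and the factors GATA1 with its cofactor FOG1, FLI1, RUNX1 and NF-E2 switch on the genes of platelet adhesion and granules. Platelets bind von Willebrand factor through the GPIb-IX-V complex and fibrinogen through the integrin αIIbβ3, and are activated by thrombin, ADP and thromboxane. HSCs share several of these genes with megakaryocytes, among them the αIIb integrin gene and the von Willebrand factor gene, and some HSCs are biased towards platelet production.

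In the knockout HSCs, 7 of the genes, all encoding membrane proteins, rose while the platelet transcription factor gene Nfe2 fell. The 7 genes that rose were the thrombin receptor gene F2r (2.22-fold), both subunits of the fibrinogen receptor, Itga2b (1.47-fold) and Itgb3 (1.52-fold), and Gp9 of the von Willebrand factor receptor (1.47-fold). The laminin receptor subunit gene Itga6 (1.36-fold) and the tetraspanin genes Cd9 (1.36-fold) and Cd63 (1.31-fold) rose too. Nfe2 was 1.64-fold lower. The genes Gp6, Clec1b, Ppbp, Ltbp1, P2ry12, Alox12 and Myl9 lay in the dimmest part of the array, while other platelet genes such as Pf4, Gp5, Treml1 and Tubb1 were bright enough to test and did not pass.

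Of the 30 measured genes, 7 were too dim to test and 23 were tested with limma, with Benjamini-Hochberg adjustment over all 39543 clusters kept and a call at an adjusted p under 0.05. The call was higher for 7 of the 23 (30.4%) and lower for 1 (4.35%), against 2.96% of all tested clusters called higher, 4.84% called lower and 7.80% called in either direction. Without any 1 of the wild-type arrays, 4 of the 23 were called higher, as were 542 to 672 of the 39543 clusters. The change was above 0 for 17 (73.9%) and below 0 for 6, against 50.6% of all tested clusters above 0. The median change was 0.15 on the log2 scale, against 0.00 over all tested clusters, and 0.09 over all 30 measured genes with no filter. The groups did not overlap for 17 of the 23 genes, 12 with every knockout array higher and 5 with every knockout array lower. Over all tested clusters, groups did not overlap in 26.5%, 11.6% with every knockout array higher and 14.9% with every knockout array lower. The genes were listed with earlier results of these arrays known, so these shares describe the list and test nothing about it. In sorted bulk samples, more cells carrying a transcript and more transcript per cell cannot be told apart.

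**Figure D1:**
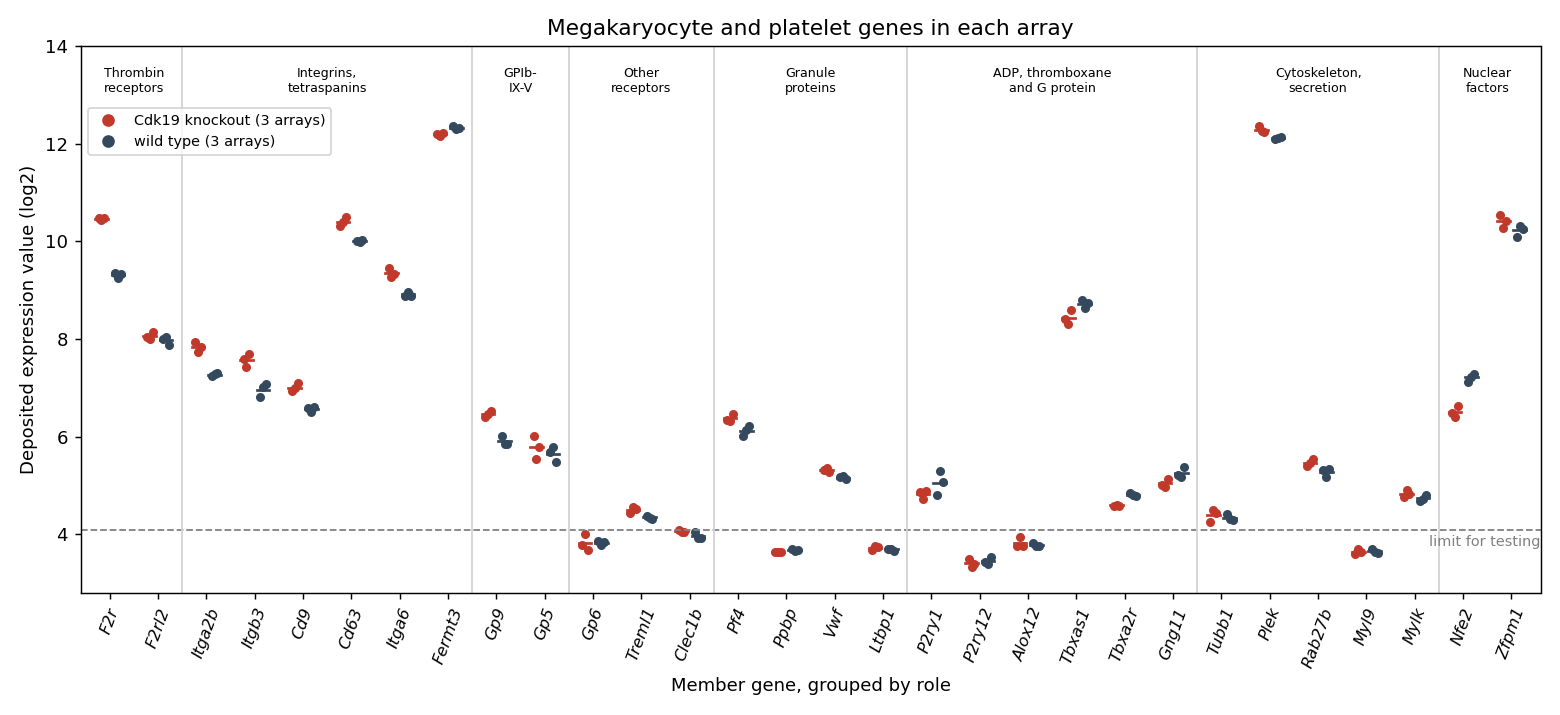
Deposited log2 expression value (vertical axis) of each of the 30 measured genes (horizontal axis, grouped by role) in the 3 Cdk19 knockout arrays (red, left of each pair) and the 3 wild-type arrays (dark blue, right), with short bars at the group means. The dashed line is the limit of 4.09 below which a cluster was not tested; brightness differs between probes, so heights of different genes are not comparable. F2r, Itga2b, Itgb3, Gp9, Itga6, Cd9 and Cd63 have all knockout points above all wild-type points, and Nfe2 has them all below.

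Promoters are shown for genes that passed in the same direction, since GATA, ETS and RUNX factors are known to act at megakaryocyte promoters. RefSeq (GRCm38.p6) gave windows of 250 bases before to 50 bases after the start for 27 of the 33 genes, and for 5 of the 7 that rose. The 3 genes whose rise kept its call under every alternative setting are printed 5′ to 3′ on the gene's strand. Capitals mark matches to the motifs searched on both strands. The letters were AGATAA or, equally, TGATAA for GATA factors, CCGGAA or, equally, CAGGAA for ETS factors, and TGTGGT or, equally, TGCGGT for RUNX factors. For AP-1 and NF-E2 they were TGAGTCA with its reverse complement TGACTCA, and for the GC box GGGCGG. No matches overlapped in the windows printed.
F2r (chr13:95618417-95618716, - strand): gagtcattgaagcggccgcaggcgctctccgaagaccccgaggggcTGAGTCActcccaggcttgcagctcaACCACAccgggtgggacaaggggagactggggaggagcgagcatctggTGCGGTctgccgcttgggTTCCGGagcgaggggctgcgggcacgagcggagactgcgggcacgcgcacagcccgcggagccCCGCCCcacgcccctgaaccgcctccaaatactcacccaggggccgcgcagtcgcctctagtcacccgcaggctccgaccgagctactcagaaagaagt
Itga2b (chr11:102469834-102470133, - strand): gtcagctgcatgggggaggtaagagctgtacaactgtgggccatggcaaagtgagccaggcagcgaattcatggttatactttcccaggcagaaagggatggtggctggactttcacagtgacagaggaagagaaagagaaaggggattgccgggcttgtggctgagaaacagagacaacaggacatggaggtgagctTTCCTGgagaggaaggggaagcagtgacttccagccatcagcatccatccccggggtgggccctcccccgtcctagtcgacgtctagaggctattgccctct
Gp9 (chr6:87777820-87778119, + strand): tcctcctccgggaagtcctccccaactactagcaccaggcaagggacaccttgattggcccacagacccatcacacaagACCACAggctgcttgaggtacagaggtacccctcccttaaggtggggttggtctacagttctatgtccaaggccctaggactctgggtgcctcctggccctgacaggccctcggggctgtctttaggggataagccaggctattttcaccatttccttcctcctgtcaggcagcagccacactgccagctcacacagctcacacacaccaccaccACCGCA
The F2r window held 5 matches, 1 of ETS, 2 of RUNX, 1 of AP-1 and NF-E2 and 1 GC box, and 68.7% of its bases were G or C. The Itga2b window held 1 match, of ETS, and the Gp9 window 2, both of RUNX. The Cd9 window held 1 ETS match and 2 GC boxes, and that of Cd63 had 0 matches. None of the 5 windows held a GATA match. The 27 genes had 30 windows in all, as some genes had several. Over these 30 windows, GATA letters were found in 6, ETS letters in 13 (43.3%), RUNX letters in 6, AP-1 and NF-E2 letters in 3 (10.0%) and GC boxes in 9 (30.0%). Over all 32851 windows of the table the shares were 18.6%, 41.4%, 22.4%, 5.20% and 35.7% in the same order. A match is a run of letters and not a bound site, and its absence says only that these letters are not in the window.

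Thrombin receptors are cut by thrombin and then activate themselves through the new end. F2r encodes PAR1, the main thrombin receptor of human platelets, which in mice is carried by other cells, while mouse platelets use PAR3, encoded by F2rl2, together with PAR4. The level of F2r was 10.47, 10.44 and 10.48 in the knockout arrays and 9.35, 9.25 and 9.34 in the wild-type arrays. Every knockout array lay more than 1 log2 unit above every wild-type array, and the knockout arrays lay closer together (SD 0.02) than the wild-type arrays (SD 0.06). The change was 1.15 (SE 0.05; limma adjusted p = 2.2e-04). F2rl2 was at 8.04, 8.00 and 8.15 in knockout arrays and 8.00, 8.05 and 7.87 in wild-type arrays. These groups overlapped, and the change of 0.09 had a 95% interval from -0.09 to 0.27 that ends below the interval of F2r, 1.02 to 1.28.

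Within each array, the log2 ratio of F2r to F2rl2 was 2.43, 2.44 and 2.33 in knockout arrays and 1.35, 1.20 and 1.47 in wild-type arrays. The ratio was higher in each of the 3 knockout arrays, by 1.06 on average. The pair was chosen with these values known. An exact two-sided permutation test gave p = 0.10, the smallest that 3 arrays against 3 allow (adjusted p = 0.15 over the 3 pairs of genes compared). That test could not have passed, so no conclusion is drawn from it. Both genes lie on chromosome 13, with 1 protein-coding gene between them in the RefSeq table. F2rl3, which encodes PAR4, was at 6.01 ± 0.18 in knockout and 6.31 ± 0.11 in wild type (SD, n = 3 each) and did not pass (limma adjusted p = 0.176). F2rl1, encoding the related PAR2, had no cluster of that symbol.

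The integrin αIIbβ3 is the fibrinogen receptor that lets platelets aggregate, and its subunits are also known as CD41 (Itga2b) and CD61 (Itgb3). Itga2b was at 7.93, 7.73 and 7.83 in knockout arrays and 7.24, 7.28 and 7.30 in wild-type arrays, a change of 0.56 (SE 0.07; limma adjusted p = 0.0069). Itgb3 was at 7.59, 7.42 and 7.69 in knockout arrays and 6.81, 7.01 and 7.07 in wild-type arrays, a change of 0.60 (SE 0.10; limma adjusted p = 0.017). For each subunit the lowest knockout array, replicate 2 in both cases, was above the highest wild-type array. The log2 ratio of Itga2b to Itgb3 differed by -0.05 between the genotypes (exact two-sided permutation p = 0.60), with overlapping groups. Both genes were listed with earlier results of these arrays known, and a p this large does not show that the subunits changed alike. The spread of Itgb3 was the wider, with an SD of 0.14 in each group against 0.10 in knockout and 0.03 in wild type for Itga2b. The Itgb3 call was lost without knockout replicate 1 (limma adjusted p = 0.057) or 3 (0.053) and without wild-type replicate 1 (0.053) or 2 (0.062), with changes of 0.53 to 0.63.

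Itga6 encodes the α6 subunit of laminin receptors, found on platelets and on HSCs. It was at 9.45, 9.27 and 9.34 in knockout arrays and 8.89, 8.97 and 8.88 in wild-type arrays, a change of 0.44 (SE 0.07; limma adjusted p = 0.013). Its groups were separated by more than the range within either. Fermt3 encodes kindlin-3, which binds integrin tails and is needed to activate them in blood cells. It ran the other way, at 12.19, 12.16 and 12.22 in knockout arrays and 12.36, 12.29 and 12.32 in wild-type arrays. The groups did not overlap, but the change of -0.13 was small and did not pass (limma adjusted p = 0.152). Among the genes outside the list, Itgb1, the β1 partner of α6, rose by 0.26 (limma adjusted p = 0.031), a call lost in 9 of 13 alternatives.

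Tetraspanins are membrane proteins that gather integrins into domains. Cd9, abundant on platelets and on megakaryocyte-biased progenitors, was at 6.93, 6.99 and 7.09 in knockout arrays and 6.58, 6.50 and 6.60 in wild-type arrays (change 0.44, SE 0.07; limma adjusted p = 0.013). Cd63, which sits in the membrane of lysosomes and platelet dense granules, was at 10.31, 10.40 and 10.49 in knockout arrays and 10.01, 9.99 and 10.02 in wild-type arrays (change 0.39, SE 0.06; limma adjusted p = 0.014). In both genes every knockout array was above every wild-type array, and Cd63 varied more in knockout (SD 0.09) than in wild type (SD 0.02). The calls of Itga6, Cd9 and Cd63 did not hold in every run that left out an array. Without wild-type replicate 1, Itga6 (0.055) and Cd63 (0.055) were lost, without replicate 2 Cd9 (0.063) and Cd63 (0.066), and without replicate 3 all 3 (0.065, 0.054 and 0.063). With those arrays left out 4 of the 7 genes were still called higher in each run.

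The GPIb-IX-V complex holds flowing platelets to von Willebrand factor. Gp9, which encodes its small GPIX subunit, was at 6.41, 6.46 and 6.52 in knockout arrays and 6.02, 5.85 and 5.85 in wild-type arrays. The knockout arrays were all higher, with a change of 0.56 (SE 0.07; limma adjusted p = 0.0080). Gp5, the GPV subunit, was at 6.01, 5.54 and 5.79 in knockout arrays and 5.68, 5.78 and 5.48 in wild-type arrays. Those groups overlapped, and the change of 0.13 had a wide 95% interval, from -0.19 to 0.46. The log2 ratio of Gp9 to Gp5 was 0.40, 0.92 and 0.73 in knockout arrays and 0.34, 0.07 and 0.37 in wild-type arrays. The difference was 0.42. An exact two-sided permutation test gave p = 0.10 (adjusted p = 0.15), and 3 arrays against 3 can give no smaller p. Both genes were listed with earlier results of these arrays known, so no conclusion is drawn from that test.

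**Figure D2:**
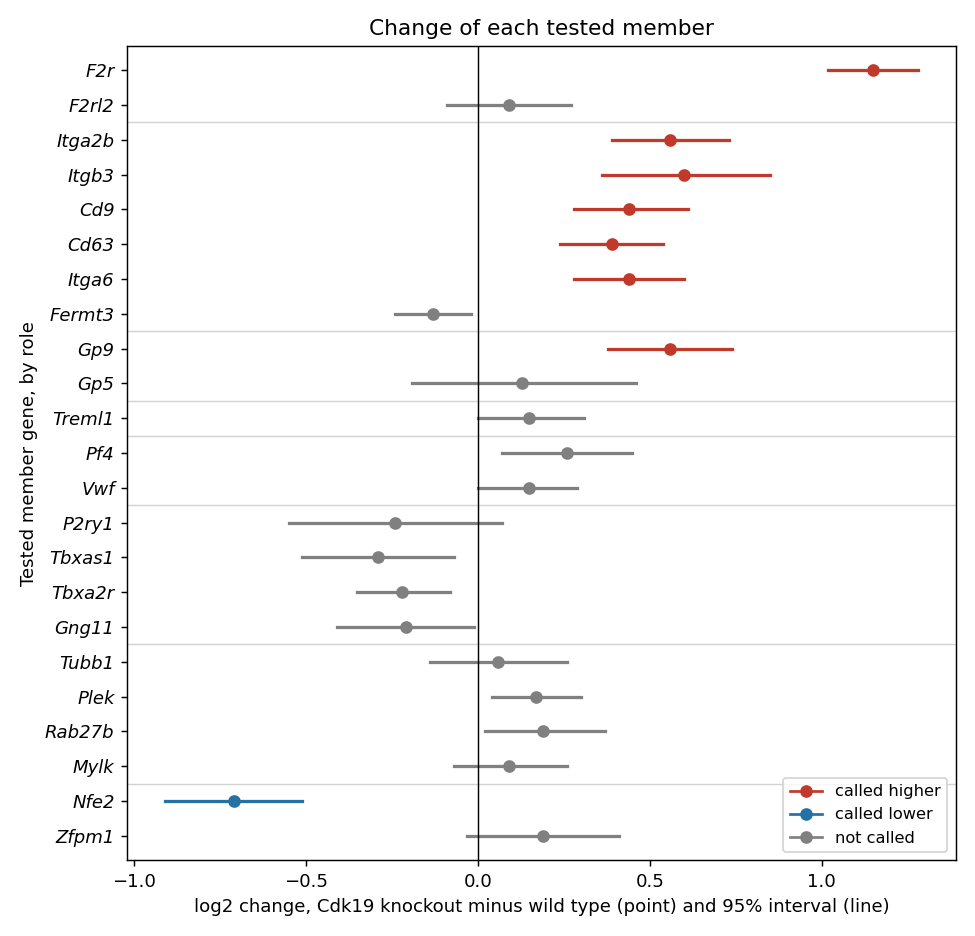
Change of each of the 23 tested genes on the log2 scale (horizontal axis, Cdk19 knockout minus wild type) as a point with its 95% interval as a line, 3 arrays per genotype, ordered by role from top to bottom. The 7 genes called higher (red) run from 0.39 for Cd63 to 1.15 for F2r, Nfe2 (blue) is the gene called lower at -0.71, and the genes not called (grey) lie between -0.29 and 0.26.

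Other platelet receptors were dim. Treml1 encodes TLT-1, a receptor stored in platelet granules, and was at 4.43 to 4.56 in knockout arrays and 4.32 to 4.38 in wild-type arrays. These groups did not overlap, yet the change of 0.15 did not pass (limma adjusted p = 0.228). Gp6, the collagen receptor, was at 3.79, 4.01 and 3.69 in knockout arrays and 3.87, 3.79 and 3.84 in wild-type arrays. Clec1b, the podoplanin receptor CLEC-2, was at 4.08, 4.05 and 4.05 in knockout arrays and 4.05, 3.93 and 3.92 in wild-type arrays. Gp6 and Clec1b lay below the limit of 4.09 on average over the 6 arrays and were not tested.

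Among granule proteins, the chemokine gene Pf4, whose product is released from megakaryocytes in the marrow and restrains HSC cycling, was at 6.35, 6.32 and 6.47 in knockout arrays and 6.01, 6.13 and 6.21 in wild-type arrays. Every knockout array was higher, but the change of 0.26 (SE 0.08) did not pass (limma adjusted p = 0.112). Vwf, encoding von Willebrand factor and a marker of platelet-biased HSCs, was at 5.31, 5.35 and 5.27 in knockout arrays and 5.17, 5.19 and 5.13 in wild-type arrays. Here too the groups did not overlap and the change, 0.15, did not pass (limma adjusted p = 0.221). Ppbp, which encodes another platelet chemokine and is next to Pf4 on chromosome 5, was at 3.63 to 3.65 in knockout arrays and 3.66 to 3.70 in wild-type arrays, too dim to test. Ltbp1, which binds latent TGF-beta, was too dim as well, with no array above 3.77. Vwf is next to Cd9 on chromosome 6 in the RefSeq table, so in each of the pairs F2r with F2rl2 and Cd9 with Vwf 1 gene passed and the other did not.

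The 4 tested genes of ADP and thromboxane signalling all had lower means in knockout, and none passed. Tbxa2r, the thromboxane receptor, was at 4.59, 4.61 and 4.59 in knockout arrays and 4.85, 4.80 and 4.79 in wild-type arrays, a change of -0.22 (limma adjusted p = 0.075). It was called after quantile normalization (limma adjusted p = 0.043), with a change of -0.24. Tbxas1, thromboxane synthase, was at 8.40, 8.30 and 8.60 in knockout arrays and 8.79, 8.64 and 8.74 in wild-type arrays (change -0.29, limma adjusted p = 0.126). In both genes every knockout array was below every wild-type array. Gng11, a G protein γ subunit abundant in platelets, had a change of -0.21 (limma adjusted p = 0.207), also without overlap. P2ry1, an ADP receptor, was at 4.86, 4.72 and 4.88 in knockout arrays and 4.80, 5.29 and 5.08 in wild-type arrays, with overlap. P2ry12, the other ADP receptor of platelets, and Alox12, a lipoxygenase of arachidonic acid, were too dim to test, between 3.33 and 3.95 in every array.

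Of the 4 tested genes for shape change and secretion none passed. Plek, encoding the protein kinase C substrate pleckstrin, was at 12.37, 12.25 and 12.23 in knockout arrays and 12.09, 12.12 and 12.13 in wild-type arrays. Rab27b, a small GTPase of granule secretion, was at 5.41, 5.46 and 5.54 in knockout arrays and 5.31, 5.18 and 5.34 in wild-type arrays. Neither overlapped, with changes of 0.17 (limma adjusted p = 0.126) and 0.19 (limma adjusted p = 0.191). Tubb1, the β1-tubulin of the platelet rim, and Mylk, the kinase of myosin light chains, had changes of 0.06 and 0.09 with overlapping groups. Myl9, a myosin light chain, was too dim to test, at 3.60 to 3.71 in all arrays.

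Nfe2 encodes the p45 subunit of NF-E2, without which mouse megakaryocytes fail to release platelets. It was at 6.48, 6.41 and 6.63 in knockout arrays and 7.13, 7.23 and 7.29 in wild-type arrays. The highest knockout array lay clearly below the lowest wild-type array. The change was -0.71 (SE 0.08, 95% interval -0.91 to -0.51; limma adjusted p = 0.0049), and the call held in all 13 alternatives run. Zfpm1, encoding the GATA1 cofactor FOG1, was at 10.54, 10.28 and 10.42 in knockout arrays and 10.09, 10.32 and 10.26 in wild-type arrays. Its groups overlapped and its change of 0.19 did not pass (limma adjusted p = 0.301).

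The calls of F2r, Itga2b, Gp9 and Nfe2 held in each of 13 alternatives, which comprised 6 runs without 1 array and 7 other settings. For F2r the adjusted p ran from 2.1e-04 to 0.0069, for Nfe2 from 0.0034 to 0.029, for Itga2b from 0.0032 to 0.038 and for Gp9 from 0.0055 to 0.046 (limma in each case). The arrays of 1 genotype were not ordered alike for all genes, but knockout replicate 2 was the lowest knockout array for 13 of the 23 tested genes and knockout replicate 3 the highest for 13. No wild-type array was lowest for more than 8 or highest for more than 10.

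**Figure D3:**
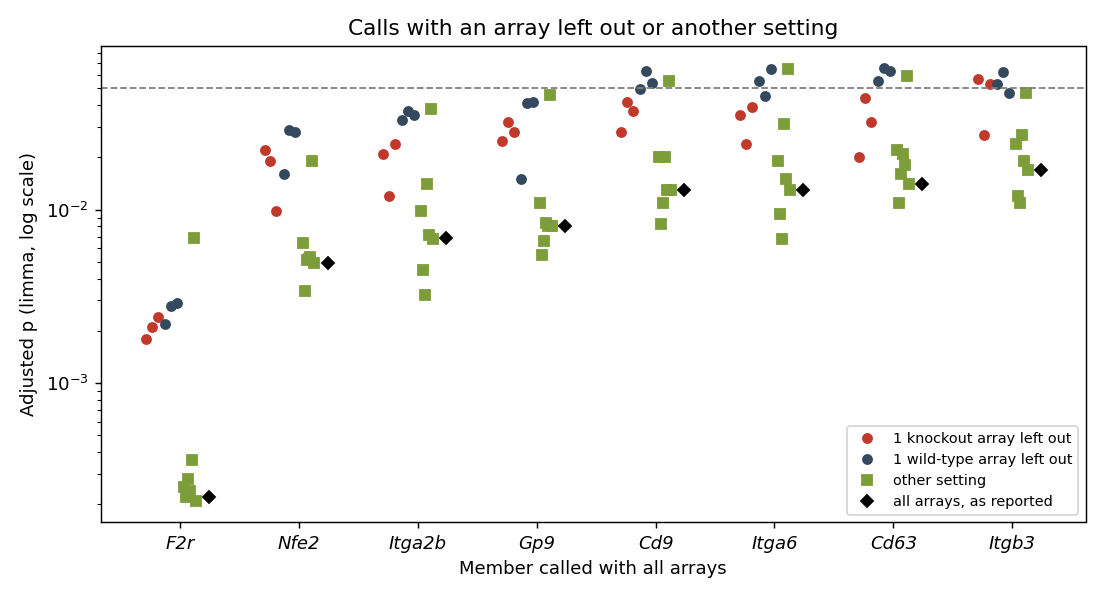
Adjusted p (vertical axis, log scale) of the 8 genes called with all arrays, in the fit with all arrays (black diamonds), with 1 knockout array left out (red), with 1 wild-type array left out (dark blue) and under 7 other settings (green squares); the dashed line is at 0.05. All points of F2r, Nfe2, Itga2b and Gp9 lie below the line, while Cd9, Itga6, Cd63 and Itgb3 have points above it, up to 0.066.

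Other genes of megakaryocytes and platelets were taken from 7 lists, of which 117 genes were tested, 11 rose and 15 fell, against 2.96% of all tested clusters called higher and 4.84% lower. With 1 array left out, 6 to 10 of these genes were called higher and 9 to 13 lower, with the lowest count in both directions without wild-type replicate 3. Their median change was -0.02 on the log2 scale. Among 19 megakaryocyte transcription factor genes, 6 fell and 1 rose, with a median of -0.14, and the counts of this list and those after it are to be read against the same shares of all clusters. The falls were Lyl1 (-1.33), Meis1 (-0.86), Erg (-0.47) and Mrtfa (-0.45), all of which act in blood stem cells or megakaryocytes, and the LIM complex genes Lmo2 and Ldb1 (each -0.25). The Lmo2 and Ldb1 calls were each lost in 10 of 13 alternatives. The rise was that of Mafk, which encodes a small Maf partner of p45 in NF-E2, by 0.33, a call lost in 8 of 13 alternatives. Gata1 differed by 0.09, Gata2 by -0.04, Gfi1b by -0.05, Runx1 by -0.14, Fli1 by -0.16 and Tal1 by -0.28, and none of these passed (limma adjusted p = 0.058 for Tal1, higher for the others).

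Of 20 tested receptor and adhesion genes outside the list, 2 rose and 3 fell. Selp encodes P-selectin, which moves from granules to the surface of activated platelets and endothelium. It was at 8.22, 7.98 and 8.24 in knockout arrays and 7.17, 7.22 and 7.23 in wild-type arrays, a change of 0.94 (SE 0.09; limma adjusted p = 0.0021), with the groups far apart. Itgb1 was the other rise. Pecam1, an adhesion molecule of platelets, leukocytes and endothelium, fell by 0.53, the SLAM receptor gene Cd84 by 0.48 and the tetraspanin gene Tspan32 by 0.46, the Tspan32 call lost in 3 of 13 alternatives. The HSC marker Slamf1 differed by -0.13 and did not pass.

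Signalling genes split. Of 25 tested, 5 rose and 3 fell, with a median of 0.05. Gna13, a G protein α subunit used by thrombin receptors, and Pik3cb, the p110β kinase, each rose by 0.55, the kinase gene Prkca by 0.52 and Rap1b, a GTPase that switches integrins on, by 0.39. Rgs10 rose by 0.26, with an adjusted p of 0.0498 (limma) that was lost in 10 of 13 alternatives. Rgs18, a brake on G protein signals in platelets, fell by 0.62, Vav1 by 0.47 and the p110γ kinase gene Pik3cg by 0.43. Calls of Prkca and Vav1 were each lost in 2 of 13 alternatives.

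Among 26 tested genes of granule cargo and release, 2 rose and 2 fell, with a median of -0.04. Thbs1, encoding thrombospondin-1, was at 10.00, 9.78 and 9.95 in knockout arrays and 6.34, 6.43 and 6.34 in wild-type arrays, a change of 3.54 (SE 0.08; limma adjusted p = 2.8e-05). Vegfa, an angiogenic factor gene, rose by 1.65 (SE 0.10; limma adjusted p = 4.3e-04). Angpt1, a growth factor gene, and Vps33b, needed to form alpha granules, each changed by -0.39. The call of Angpt1 was lost in 3 of 13 alternatives and that of Vps33b in 1. Mmrn1 and F5, genes of other alpha granule proteins, differed by -0.08 and 0.29 and did not pass. Of 18 cytoskeletal genes Vcl, encoding vinculin, rose by 0.35 (limma adjusted p = 0.040), a call lost in 8 of 13 alternatives, and 17 did not pass. Of 8 tested genes of thrombopoietin and growth signalling, Kit, the stem cell factor receptor gene, fell by 0.47 and the other 7 did not pass.

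**Figure D4:**
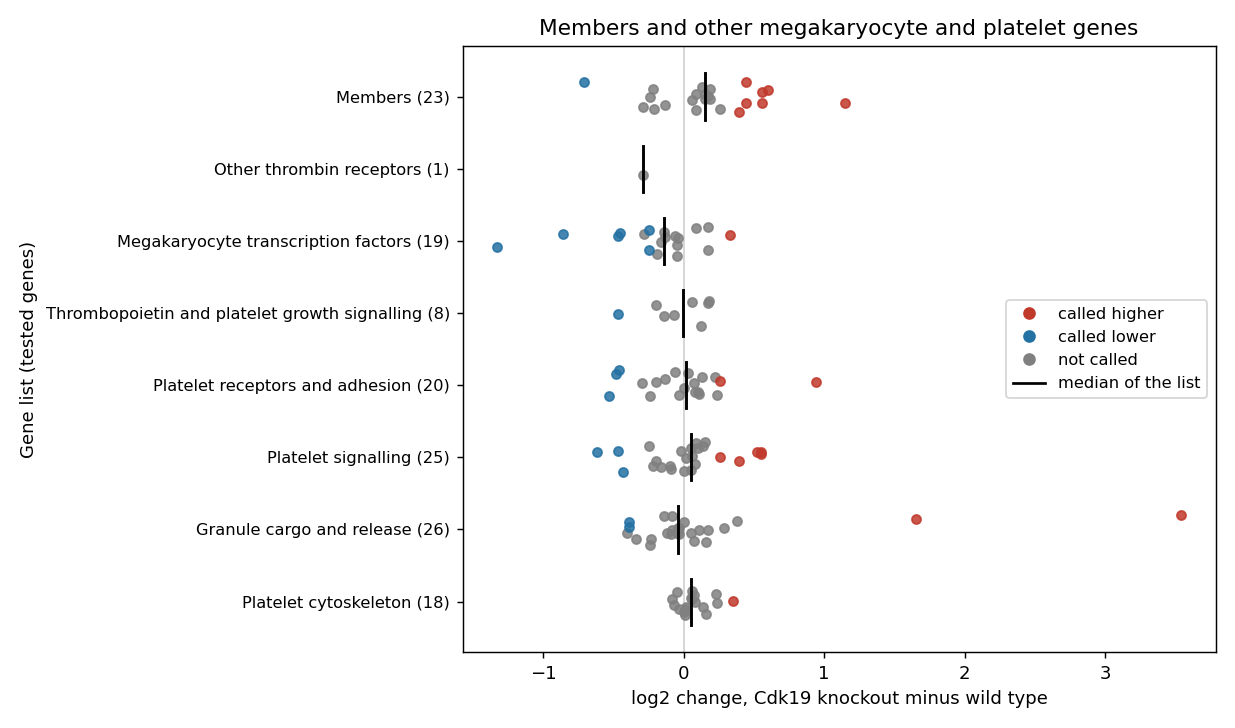
Change on the log2 scale (horizontal axis, Cdk19 knockout minus wild type) of each tested gene of the 33-gene list (top row, 23 genes) and of 7 lists of other megakaryocyte and platelet genes (rows below, number tested in brackets), with vertical bars at the medians. The listed genes have a median of 0.15 with 7 called higher and 1 lower, and the megakaryocyte transcription factors a median of -0.14 with 1 called higher and 6 lower; the point farthest right is Thbs1 at 3.54.

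The level and the calls of cell type markers were taken from the same fit, in which 2.96% of all clusters were called higher and 4.84% lower. Over the 11 measured defining markers of megakaryocytes, all of them also on the 33-gene list, the mean log2 level was 5.42 to 5.44 in knockout arrays and 5.19 to 5.21 in wild-type arrays. Of the 8 tested, 3 rose (Itga2b, Itgb3 and Gp9, already counted above) and 0 fell, and Gp6, Ppbp and Clec1b were below the limit for testing. The 6 tested genes of the 33 with a change below 0, Nfe2 among them, are not on this marker list. Its level and calls therefore repeat part of the 33-gene result and are no separate measure of megakaryocyte cells. Stem cell markers were measured at a mean of 9.21 to 9.24 in knockout arrays and 9.40 to 9.44 in wild-type arrays. That list held Cd34 (mean over all arrays 15.89) and Cd48 (11.31) beside Slamf1 (5.71) and Procr (7.33), so its level does not measure stem cell identity. Of 12 tested, 3 fell (Kit, Hlf and Meis1) and 0 rose. B cell markers were at 5.34 to 5.38 in knockout arrays and 5.68 to 5.74 in wild-type arrays, with 4 of 7 tested lower. Granulocyte markers were at 7.51 to 7.60 in knockout arrays and 7.36 to 7.49 in wild-type arrays, with 2 of 11 higher, and monocyte and macrophage markers at 6.62 to 6.76 in knockout arrays and 6.54 to 6.65 in wild-type arrays, with 2 of 9 higher.

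Erythroid markers were at 6.25 to 6.29 in knockout arrays and 6.37 to 6.42 in wild-type arrays, with Car1 the 1 of 7 called and lower. Mast cell and basophil markers were at 6.18 to 6.25 in knockout arrays and 6.14 to 6.22 in wild-type arrays, with Cpa3 the 1 of 6 called and higher. T and NK cell markers were at 5.40 to 5.42 in knockout arrays and 5.32 to 5.41 in wild-type arrays, with 0 of 6 called. Endothelial markers were at 5.99 to 6.03 in knockout arrays and 6.03 to 6.06 in wild-type arrays, with Pecam1 the 1 of 5 called and lower, and Cdh5, Kdr, Cldn5 and Plvap below the limit for testing. Stromal markers were at 4.68 to 4.73 in knockout arrays and 4.64 to 4.70 in wild-type arrays, with 0 of 3 called and 6 of 9 below the limit. Their part in the changes of the platelet genes was not tested.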

How the data were processed

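Values were the log2 expression values that the authors deposited for 65956 transcript clusters on 6 arrays. The submitters' processing notes name MAS5 alone. How background, probe summary and normalization were handled, and the log base, is not stated in those notes or in the labels, so fold sizes rest on reading the values, 2.04 to 19.93, as log2. Symbols came from the platform annotation, where 30604 clusters had 1 symbol, 2146 several and 33206 none. For 827 clusters they were updated through gene IDs in the RefSeq table (GRCm38.p6). The brightest cluster by mean over the 6 arrays stood for a gene.

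The dimmest 40% of clusters were left out (limit 4.09), which kept 39543. Under R 4.3.3, limma 3.58.1 (lmFit, then eBayes with trend) estimated knockout minus wild type with 1 genotype term. Tests were two-sided, adjustment by Benjamini-Hochberg ran over every cluster kept, a call is an adjusted p under 0.05, SEs are moderated and SDs are over 3 arrays. Precision is set by having 3 arrays a genotype. Tables used Python 3.11.15 with pandas 2.3.3 and plots matplotlib 3.10.9.

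The 33 genes, the other lists and the marker lists were chosen with earlier results of these data known. The rule for names took all 33 genes, every called gene of the other lists, 14 fixed genes of those lists, of which 1 is not reported here, and Cdk19. Alternatives were no filter, a filter on the dimmest 60%, quantile normalization, a common median, no intensity trend, the replicate number as a block, the mean of a gene's clusters and leaving out each array. Protein sequences were not used here.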

Additional observations from a re-analysis of the deposited data

How the results depend on the processing

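Of the results of single tested genes over 13 alternatives, 279 kept their direction and their side of the threshold, 14 lost a call, 1 gained one and 0 reversed. The lost calls were those of Itgb3, Cd9, Cd63 and Itga6. The count of listed genes called higher was 4 with the replicate number as a block and 4 to 7 with 1 array left out, and the count called lower was 2 after quantile normalization and 1 in every run with an array left out. The median change of the tested genes was 0.13 to 0.19 with 1 array left out, and the Cdk19 call held in all 13 alternatives. With a common median for all arrays the median change was 0.12, and changes moved down slightly. That of F2r was 1.12 in place of 1.15, and that of Nfe2 -0.74 in place of -0.71. Other pathway genes called higher numbered 7 with no filter, 7 with a common median, 6 with the block and 6 to 10 with 1 array left out, and those called lower 9 to 13 with 1 array left out. Over all clusters, 630 were called higher and 1083 lower with the block, and 542 to 971 higher and 764 to 1508 lower with 1 array left out. Quantile normalization gave 1434 higher and 1799 lower over all clusters, and a common median 869 higher and 1948 lower. Same-numbered knockout and wild-type arrays had correlations of their deviations from the group means of -0.14, -0.10 and 0.02. No array correlated best with the array of its own number. With 3 arrays a genotype these values cannot show whether the numbers mark a pairing, and the labels do not say. Under the block the calls of Cd9, Cd63 and Itga6 were lost. Fits with the block or without 1 array had fewer degrees of freedom or arrays, and the cause of the lower counts was not tested. The 7 dim genes were tested with no filter, where the count of listed genes called higher was again 7. In that fit 950 of all 65956 clusters were called higher and 1549 lower.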
